A study of Homo sapiens with 10 samples.

Results

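Aminoacyl-tRNA synthetases join each amino acid to its transfer RNA (tRNA), the step that lets the ribosome read the genetic code. Human cells keep separate enzymes for the cytosol and for mitochondria, mostly encoded by different nuclear genes. Symbols ending in 1 mark the cytosolic enzyme and symbols ending in 2 the mitochondrial enzyme, while GARS1 and KARS1 each serve both compartments. Here 36 synthetase genes, chosen by name, were followed in HeyA8, a long-established line of human ovarian cancer cells. Of these, 20 encode cytosolic and 16 mitochondrial enzymes, and the files list 58395 genes in all. All 36 had enough counts to be tested, among 16905 genes.

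The cells received an siRNA duplex with a chemically modified passenger strand at 10 nM and were lysed 24 or 48 h later. The non-targeting duplex siNT1 was the control at both times. Wells lysed at 48 h had their medium changed at 24 h. In comparisons between times, the hours passed and the fresh medium therefore cannot be told apart. siGGGGGC, called siMxy in the sample titles, was sampled at 24 and 48 h, and siGGCAGU, called si34a there, at 48 h. Each of the 5 groups held 2 libraries, from wells of a transfection, so the p-values measure the spread between wells. All results come from a single cell line. In bulk RNA, fewer cells of a kind and less RNA per cell cannot be told apart.

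The letters in siGGGGGC and siGGCAGU are the guide strand from position 2 to position 7, its 6mer seed, with which it can pair with messenger RNAs like a microRNA. These seeds occur in natural microRNAs, and a mature microRNA is shown for each, with bases 2 to 8 in capitals (RefSeq, GRCh38.p14).
hsa-miR-34a-5p, seed of siGGCAGU: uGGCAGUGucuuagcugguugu
hsa-miR-1237-5p, seed of siGGGGGC: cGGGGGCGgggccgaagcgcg
The words that pair with the seeds are GCCCCC for siGGGGGC and ACTGCC for siGGCAGU. In the longest annotated 3′ UTR, GCCCCC was found in 12 of 36 synthetase genes, or 33.3%, against 30.2% of all 19121 protein-coding genes with a 3′ UTR. ACTGCC was found in 4 of 36, or 11.1%, against 32.7% of all. The median length of this 3′ UTR was 630 bases in the synthetases and 1236 in all. Sites of GCCCCC are shown for enzymes that later fell and for enzymes that later rose with siGGGGGC, with the word in capitals and the flanking bases of the hg38 messenger RNA strand.
FARSA, chr19:12922639-12922644, minus strand: tctgtgaggccaGCCCCCaccttcctcttt
CARS2, chr13:110644009-110644014, minus strand: ttggcgacctgaGCCCCCttgcctggcaca
LARS2, chr3:45548511-45548516, plus strand: agtggaactgagGCCCCCcagatgttgcct
WARS1, chr14:100334378-100334383, minus strand: atttcagcccatGCCCCCtcccaaaaagaa
HARS1, chr5:140673752-140673757, minus strand: cctcgggaggcaGCCCCCgtacatacgcac
SARS1, chr1:109237987-109237992, plus strand: attcatccccctGCCCCCatctgactgcgt
HARS1 and LARS2 each held 3 copies, FARSA, EARS2 and PARS2 held 2, and EPRS1, MARS1, NARS1, SARS1, WARS1, CARS2 and TARS2 held 1. ACTGCC occurred 3 times in FARSB and once each in EARS2, PARS2 and VARS2.

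Many cytosolic synthetases are known targets of the amino acid response, in which the kinase GCN2 senses uncharged tRNA and the transcription factor ATF4 binds a composite C/EBP-ATF element. The letters TGATGNAA of this element were searched on both strands in RefSeq promoters, from 250 bases before to 50 after a gene's start. The element was found in 7 of 16 cytosolic genes with an entry (43.8%), in 1 of 14 mitochondrial genes (7.1%) and in 1217 of 27305 genes in all (4.5%). The genes that carry it are shown on their own strand, with the element or its reverse complement in capitals.
AARS1, chr16:70289686-70289693: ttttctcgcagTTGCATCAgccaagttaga
CARS1, chr11:3057418-3057425: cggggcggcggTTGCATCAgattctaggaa
GARS1, chr7:30594845-30594852: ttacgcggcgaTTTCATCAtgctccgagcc
IARS1, chr9:92293703-92293710: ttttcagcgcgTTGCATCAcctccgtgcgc
MARS1, chr12:57488064-57488071: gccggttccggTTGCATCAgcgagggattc
NARS1, chr18:57621815-57621822: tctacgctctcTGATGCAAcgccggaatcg
TARS1, chr5:33440967-33440974: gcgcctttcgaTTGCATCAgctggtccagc
YARS2, chr12:32756087-32756094: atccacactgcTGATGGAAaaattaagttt
A match describes the letters of the promoter and does not show that a factor binds there.

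Library totals ranged from 19781445 to 42428986 counts, of which the small RNA genes RN7SL2 and SNORD3A took 19.8 to 32.0%. The synthetases took 61288 to 149583 counts in a library. The targets EIF5A, PES1 and POLR2E, named by the study, fell with siGGGGGC by log2 fold changes of −2.09, −1.78 and −1.63 at 24 h and −3.48, −2.28 and −1.97 at 48 h, in the direction of the labels. The study picked these targets from libraries including these. Keratin genes KRT7, KRT8 and KRT18, the mesenchymal VIM and the Müllerian factor PAX8 were expressed, while CDH1, the epithelial cadherin, stayed between 0.8 and 19.3 normalised counts. The epithelial marker EPCAM was low too, at 10.5 to 40.6 normalised counts. MUC16, an ovarian carcinoma marker, had 31.0 in siNT1 replicate 1 at 24 h and at most 2.9 in any other library. The endothelial markers PECAM1 and VWF had 19.1 and 17.9 in that same library and at most 11.8 and 7.8 elsewhere. The immune markers PTPRC, CD3E and MS4A1 did not exceed 5.2 normalised counts in any library. No library stood apart from its replicate in a way that would question its label. By a scatter of raw counts over genes, RN7SL2 and SNORD3A included, replicates were less alike at 48 h. Their scatter, as chi-square per degree of freedom, which also grows with depth, was 2.18 and 3.17 in the 24 h groups. At 48 h it was 27.1 with siNT1, 36.5 with siGGCAGU and 9.70 with siGGGGGC. The share of RN7SL2 and SNORD3A, which enters this scatter, also differed more between replicates at 48 h. It was 19.8 and 23.9% with siNT1, 32.0 and 24.2% with siGGCAGU and 28.1 and 24.0% with siGGGGGC. At 24 h it was 27.8 and 28.3% with siNT1 and 31.1 and 30.8% with siGGGGGC. The scatter without these genes was not tested. The main fit shares its estimate of spread over all groups. With siGGCAGU, 4699 genes rose and 4207 fell in that fit, and 3723 and 3856 when the compared libraries were fitted alone.

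In siNT1 cells at 24 h, cytosolic synthetase messages were more abundant per length than mitochondrial messages. The level used here is the mean CPM (the count relative to the TMM library size) per kb of the exons of the canonical transcript. The median level was 42.9 over 20 cytosolic genes and 6.07 over 16 mitochondrial genes. The order began with TARS1 at 222.4, SARS1 at 154.3, KARS1 at 137.6 and RARS1 at 114.6, the enzymes for threonine, serine, lysine and arginine. The 14 highest genes were all cytosolic, and 9 of the 10 lowest were mitochondrial. YARS2 at 22.9 and RARS2 at 22.1 were the highest mitochondrial genes. The exception at the low end was TARS3, a near copy of TARS1, with a level of 1.31. SARS2 was the lowest with a level of 0.552 and raw counts of 11 to 36, and 77.5% of its exon bases are shared with another annotated gene, so its values are uncertain. These medians stayed apart in the other groups, at 39.1 and 5.90 with siGGGGGC at 48 h and at 43.7 and 4.72 with siGGCAGU at 48 h.

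**Figure D1:**
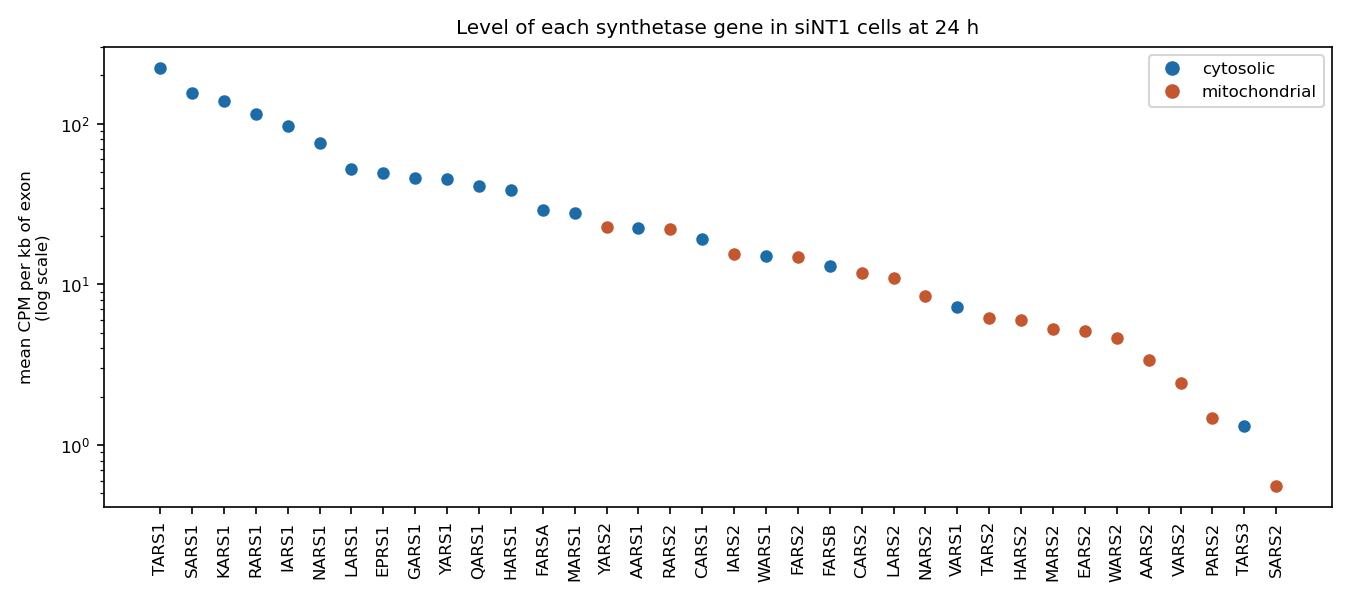
Mean CPM per kb of exon (log axis) of 36 synthetase genes in the 2 siNT1 libraries at 24 h, ordered from high to low, with cytosolic genes in blue and mitochondrial genes in orange. TARS1 leads at 222.4, SARS2 is last at 0.552, and the 14 highest points are cytosolic.

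At 24 h, siGGGGGC moved few synthetases past the threshold. A gene passed when its adjusted p was below 0.05 (edgeR quasi-likelihood test, Benjamini-Hochberg over 16905 genes). Against siNT1, 4 of 36 synthetases rose and 5 fell, beside 10.6% and 8.32% of all genes tested. Of the cytosolic genes 2 rose and 4 fell, and of the mitochondrial genes 2 rose and 1 fell. With library totals not scaled for composition, 0 cytosolic genes rose and 6 fell, and 1 mitochondrial gene rose and 1 fell. The median log2 fold change was −0.14 over the cytosolic and −0.01 over the mitochondrial genes, with 0.00 over all genes tested.

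The cytosolic enzymes that fell at 24 h were those for glycine, asparagine, alanine and tyrosine. GARS1, the glycyl enzyme of both compartments, had 2929.6 and 2905.4 normalised counts with siNT1 and 2101.9 and 2062.0 with siGGGGGC. A normalised count is a count scaled by TMM to the mean library. For GARS1 the log2 fold change was −0.49 ± 0.0821 (SE) with an adjusted p of 7.18e-04. NARS1 had 5185.0 and 5673.2 with siNT1 and 3776.4 and 4002.4 with siGGGGGC, a log2 fold change of −0.48 ± 0.0931 with an adjusted p of 0.00203. AARS1 had 1967.8 and 2028.1 with siNT1 and 1430.6 and 1475.7 with siGGGGGC, a log2 fold change of −0.46 ± 0.0960 with an adjusted p of 0.00345. GARS1, NARS1 and AARS1 carry the promoter element shown above. YARS1, the tyrosyl enzyme, fell by 0.26 on the log2 scale.

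HARS1, the histidyl enzyme, rose from 1939.1 and 1961.3 normalised counts to 2374.7 and 2403.7, by a log2 fold change of 0.29 ± 0.0815 with an adjusted p of 0.0198. QARS1, the glutaminyl enzyme, had a log2 fold change of 0.26. The calls for HARS1, QARS1 and YARS1 were lost when any of the 4 libraries compared was left out, and with unscaled library totals. Those for QARS1 and YARS1 were also lost with no filter on low counts and with replicate number as a block. Ranges over all alternatives were 0.20 to 0.31 for HARS1, 0.17 to 0.30 for QARS1 and −0.36 to −0.22 for YARS1.

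In mitochondria, LARS2, the leucyl enzyme, had 1346.1 and 1351.2 normalised counts with siNT1 and 925.3 and 1033.8 with siGGGGGC at 24 h. Its log2 fold change was −0.46 ± 0.0889 with an adjusted p of 0.00198. MARS2, the methionyl enzyme, had 395.0 and 437.3 with siNT1 and 604.9 and 600.6 with siGGGGGC, a log2 fold change of 0.54 ± 0.112 with an adjusted p of 0.00356. Without siNT1 replicate 1 at 24 h this value was 0.46 and did not pass. TARS2, the threonyl enzyme, had 433.2 and 442.5 with siNT1 and 567.3 and 564.8 with siGGGGGC, a log2 fold change of 0.37 ± 0.104 with an adjusted p of 0.0212. This call was lost without any 1 of the 4 libraries and with unscaled library totals, with a range of 0.28 to 0.39 over all alternatives. These genes were named because they passed, so the gap between their treated and control libraries is no separate support.

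By 48 h, siGGGGGC had changed the synthetases in both directions. Against siNT1 at 48 h, 10 of 36 rose and 12 fell, shares of 27.8% and 33.3%, beside 27.8% and 27.5% of all genes tested. These shares lie near the background. The compartments were unlike in their counts: 8 cytosolic genes rose and 6 fell, while 2 mitochondrial genes rose and 6 fell. Unscaled library totals gave 7 and 8 in the cytosol and 2 and 7 in mitochondria. The median log2 fold change was 0.10 over the cytosolic and −0.11 over the mitochondrial genes, and −0.01 over all genes tested. These medians are a description, and the difference between compartments was not tested. Without either siGGGGGC library at 48 h, 2 cytosolic genes fell in place of 6, and without replicate 2 the mitochondrial median was −0.03. Past 2-fold, WARS1 rose and HARS2 fell, beside 10.5% higher and 11.0% lower of all genes by that rule.

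**Figure D2:**
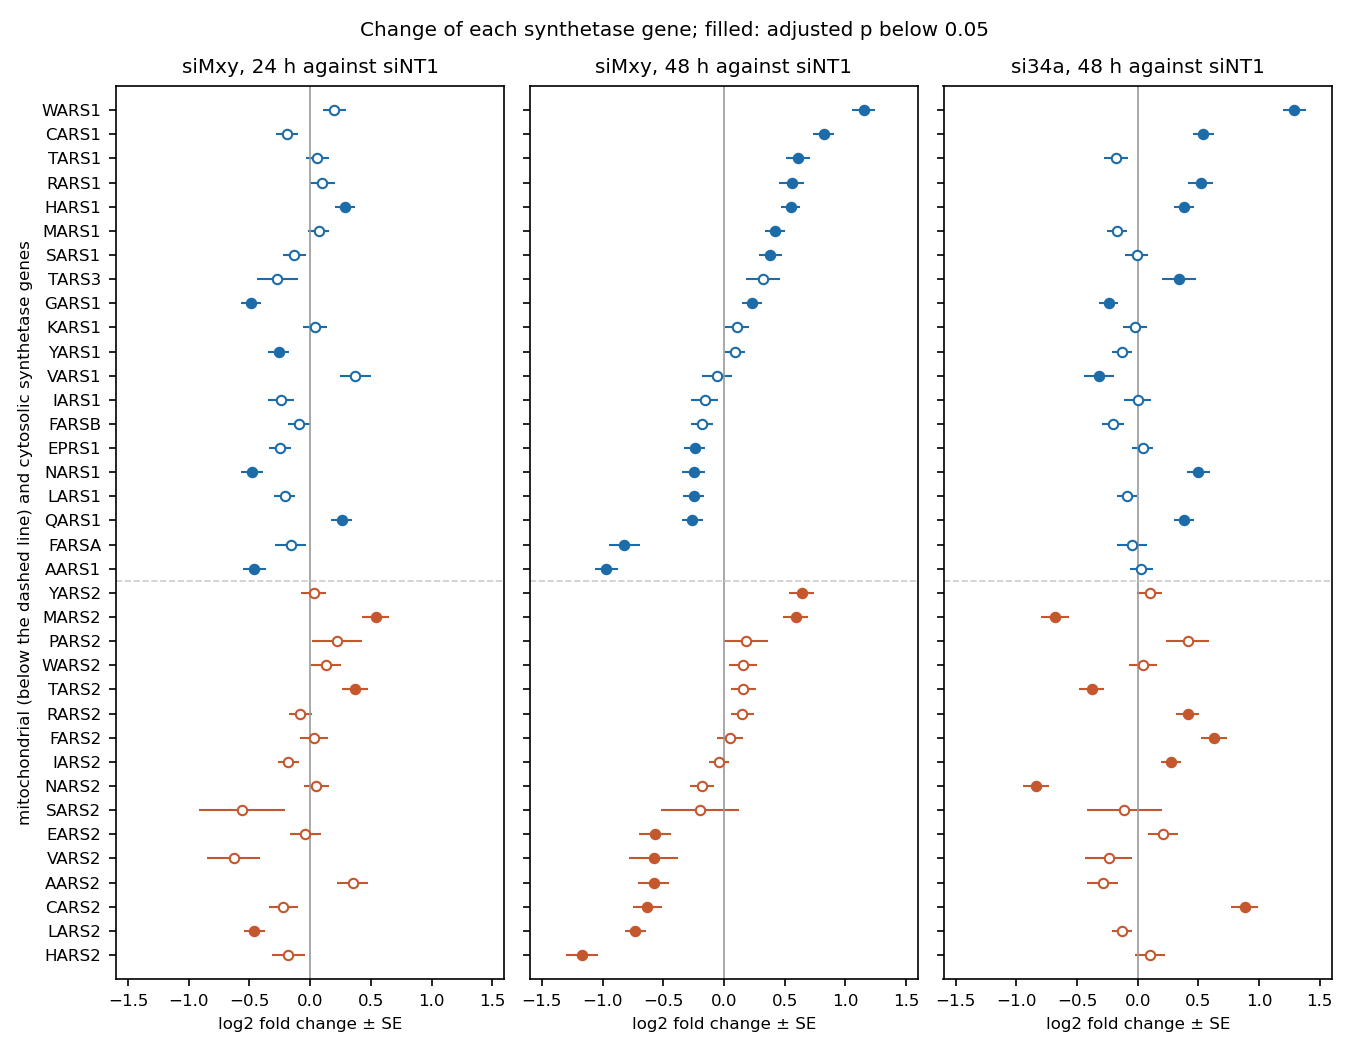
Log2 fold change (± SE) against siNT1 of each synthetase gene with siGGGGGC (siMxy) at 24 and 48 h and with siGGCAGU (si34a) at 48 h; filled points passed an adjusted p of 0.05, cytosolic genes are blue and above the dashed line, mitochondrial genes orange and below it. With siGGGGGC at 48 h the genes run from −0.97 (AARS1) to 1.15 (WARS1) in the cytosol and from −1.17 (HARS2) to 0.64 (YARS2) in mitochondria.

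WARS1, the tryptophanyl enzyme and a known interferon-inducible gene, lies at chr14:100333790-100376805. It had 911.6 and 975.6 normalised counts with siNT1 at 48 h and 2080.1 and 2096.9 with siGGGGGC. Its log2 fold change was 1.15 ± 0.0930 with an adjusted p of 7.43e-08. At 24 h its values were 980.9 and 1082.8 with siNT1 and 1114.4 and 1259.8 with siGGGGGC, with a log2 fold change of 0.20 ± 0.0962 and an adjusted p of 0.162. CARS1, the cysteinyl enzyme, had 1154.0 and 1174.9 with siNT1 and 2008.6 and 2101.1 with siGGGGGC at 48 h, a log2 fold change of 0.82 ± 0.0857 with an adjusted p of 1.05e-06.

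The other cytosolic genes that rose at 48 h were TARS1 (0.61), RARS1 (0.56), HARS1 (0.55), MARS1 (0.42), SARS1 (0.38) and GARS1 (0.23), with log2 fold changes in parentheses. TARS1 is the threonyl and SARS1 the seryl enzyme of the cytosol. TARS1 had 11780.3 and 12568.1 normalised counts with siNT1 and 18534.5 and 18717.0 with siGGGGGC, and it was the gene with the highest level per length also before treatment. MARS1 shares 2.3% of its exon bases with DDIT3, which had 71.3 and 79.6 normalised counts with siNT1 and 361.0 and 378.0 with siGGGGGC. MARS1 itself had 2088.1 and 2210.7 with siNT1 and 2808.9 and 2959.5 with siGGGGGC. GARS1 had 3345.1 and 3327.8 with siNT1 and 3899.8 and 3949.5 with siGGGGGC, with an adjusted p of 0.0213. Its call was lost without siNT1 replicate 2 or either siGGGGGC library at 48 h, with unscaled library totals (0.07) and with no filter on low counts (0.11). MARS1 and SARS1 passed in all alternatives, with lowest values of 0.27 and 0.23.

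AARS1, the alanyl enzyme, fell most among the cytosolic genes. It had 1907.6 and 1764.4 normalised counts with siNT1 and 856.2 and 1012.7 with siGGGGGC at 48 h. The log2 fold change was −0.97 ± 0.0961 with an adjusted p of 5.72e-07. FARSA, the catalytic subunit of the phenylalanyl enzyme, had 1428.2 and 1569.1 with siNT1 and 802.5 and 889.5 with siGGGGGC, a log2 fold change of −0.82 ± 0.126 with an adjusted p of 5.01e-05. Its partner subunit FARSB had 1832.5 and 2096.1 with siNT1 and 1787.3 and 1676.5 with siGGGGGC, a log2 fold change of −0.18 ± 0.0905 that did not pass.

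Smaller falls passed for QARS1 (−0.26), NARS1 (−0.25), LARS1 (−0.25) and EPRS1 (−0.24), whose products charge glutamine, asparagine, leucine, and glutamate together with proline. The calls for these 4 genes were lost without either of the siGGGGGC libraries at 48 h, and that for NARS1 and LARS1 also without siNT1 replicate 2 and that for EPRS1 without siNT1 replicate 1. Over all alternatives the values ran from −0.42 to −0.24 for QARS1, from −0.41 to −0.19 for NARS1 and for LARS1, and from −0.41 to −0.23 for EPRS1. NARS1 had 3942.2 and 4279.9 normalised counts with siNT1 and 3522.0 and 3378.9 with siGGGGGC.

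Among mitochondrial genes, HARS2, the histidyl enzyme, had 414.4 and 443.4 normalised counts with siNT1 and 162.1 and 219.5 with siGGGGGC at 48 h. The log2 fold change was −1.17 ± 0.133 with an adjusted p of 2.53e-06. HARS2 (chr5:140691430-140699305, plus strand) and HARS1 (chr5:140673035-140691537, minus strand) lie head to head, and HARS2 shares 9.5% of its exon bases with HARS1 and ZMAT2. LARS2 had 1208.2 and 1177.2 with siNT1 and 728.8 and 711.4 with siGGGGGC, a log2 fold change of −0.73 ± 0.0880 with an adjusted p of 4.72e-06. CARS2, the cysteinyl enzyme, had 471.7 and 443.4 with siNT1 and 310.7 and 280.6 with siGGGGGC, a log2 fold change of −0.63 ± 0.116 with an adjusted p of 2.82e-04. As at 24 h, these genes were named because they passed, and their gap from the controls is no separate support.

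AARS2 (−0.58), VARS2 (−0.58) and EARS2 (−0.57), the alanyl, valyl and glutamyl enzymes of mitochondria, fell as well. VARS2 rests on few counts, and its call was lost without either siNT1 library or siGGGGGC replicate 1 at 48 h, with a range of −0.75 to −0.43 over all alternatives. YARS2 and MARS2 were the mitochondrial genes that rose. YARS2, the tyrosyl enzyme and the mitochondrial gene with the promoter element, had 907.7 and 987.6 normalised counts with siNT1 and 1438.5 and 1509.8 with siGGGGGC. Its log2 fold change was 0.64 ± 0.102 with an adjusted p of 7.91e-05. MARS2 had 408.2 and 409.6 with siNT1 and 605.8 and 628.6 with siGGGGGC, a log2 fold change of 0.59 ± 0.106 with an adjusted p of 2.18e-04.

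siGGCAGU also changed synthetases in both directions at 48 h. Against siNT1, 11 of 36 rose and 5 fell, shares of 30.6% and 13.9%, beside 27.8% and 24.9% of all genes tested. In the cytosol 7 rose and 2 fell, and in mitochondria 4 rose and 3 fell. The median log2 fold change was −0.00 over the cytosolic and 0.07 over the mitochondrial genes, and 0.02 over all genes. The balance turned when library totals were not scaled for composition: 4 cytosolic genes rose and 6 fell, and 3 mitochondrial genes rose and 5 fell. WARS1, which rose, was the only synthetase past 2-fold in this fit, beside 10.7% higher and 9.62% lower of all genes by that rule.

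WARS1 had 2399.8 and 2206.1 normalised counts with siGGCAGU, a log2 fold change of 1.29 ± 0.0930 with an adjusted p of 1.78e-08. CARS1 had 1595.5 and 1775.5, a log2 fold change of 0.54 ± 0.0857 with an adjusted p of 7.96e-05. RARS1, the arginyl enzyme, had 4534.7 and 5216.5 with siNT1 and 7602.2 and 6350.6 with siGGCAGU, a log2 fold change of 0.52 ± 0.103 with an adjusted p of 5.57e-04. NARS1 had 6174.1 and 5451.4 with siGGCAGU, a log2 fold change of 0.50 ± 0.0922 with an adjusted p of 2.95e-04. NARS1 passed in all alternatives, at 0.33 to 0.59.

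HARS1 (0.38), QARS1 (0.38) and TARS3 (0.34) also rose with siGGCAGU, and VARS1 (−0.32) and GARS1 (−0.24) fell. TARS3 had 127.8 and 131.2 normalised counts with siNT1, 149.1 and 177.0 with siGGCAGU and 165.4 and 158.4 with siGGGGGC at 48 h. Its call with siGGCAGU, at an adjusted p of 0.0467, was lost in 10 of 12 alternatives, among them without siGGCAGU replicate 2 (0.20) and without either siNT1 library (0.33 and 0.37). Because TARS3 is similar in sequence to the far more abundant TARS1, its counts are uncertain. The calls for HARS1 and QARS1 were lost with unscaled library totals and when the compared libraries were fitted alone, with lowest values of 0.22 and 0.21. GARS1 had 2701.9 and 2929.9 with siGGCAGU, and its call was lost without siGGCAGU replicate 1 and when the compared libraries were fitted alone, with a range of −0.40 to −0.19. VARS1, the valyl enzyme, lost its call without siNT1 replicate 1 or siGGCAGU replicate 2 and when the compared libraries were fitted alone, with a range of −0.53 to −0.09.

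Of the mitochondrial genes, CARS2 rose from 471.7 and 443.4 normalised counts to 855.3 and 824.1 with siGGCAGU. Its log2 fold change was 0.88 ± 0.109 with an adjusted p of 6.21e-06. FARS2, the phenylalanyl enzyme, had 484.1 and 513.3 with siNT1 and 864.5 and 688.0 with siGGCAGU, a log2 fold change of 0.63 ± 0.108 with an adjusted p of 1.48e-04. RARS2 (0.41) and IARS2 (0.27), the arginyl and isoleucyl enzymes, rose by less. The call for IARS2 was lost with unscaled library totals, with no filter on low counts and when the compared libraries were fitted alone, with a range of 0.11 to 0.31, while RARS2 passed in all alternatives at 0.25 to 0.52.

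NARS2, the asparaginyl enzyme of mitochondria, had 419.0 and 466.3 normalised counts with siNT1 and 258.9 and 238.0 with siGGCAGU. It had a log2 fold change of −0.84 ± 0.105 and an adjusted p of 6.58e-06. MARS2 had 283.8 and 231.3 with siGGCAGU, a log2 fold change of −0.68 ± 0.113 with an adjusted p of 1.10e-04. TARS2 fell by 0.38 on the log2 scale, a call that was lost without siNT1 replicate 2 at 48 h.

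**Figure D3:**
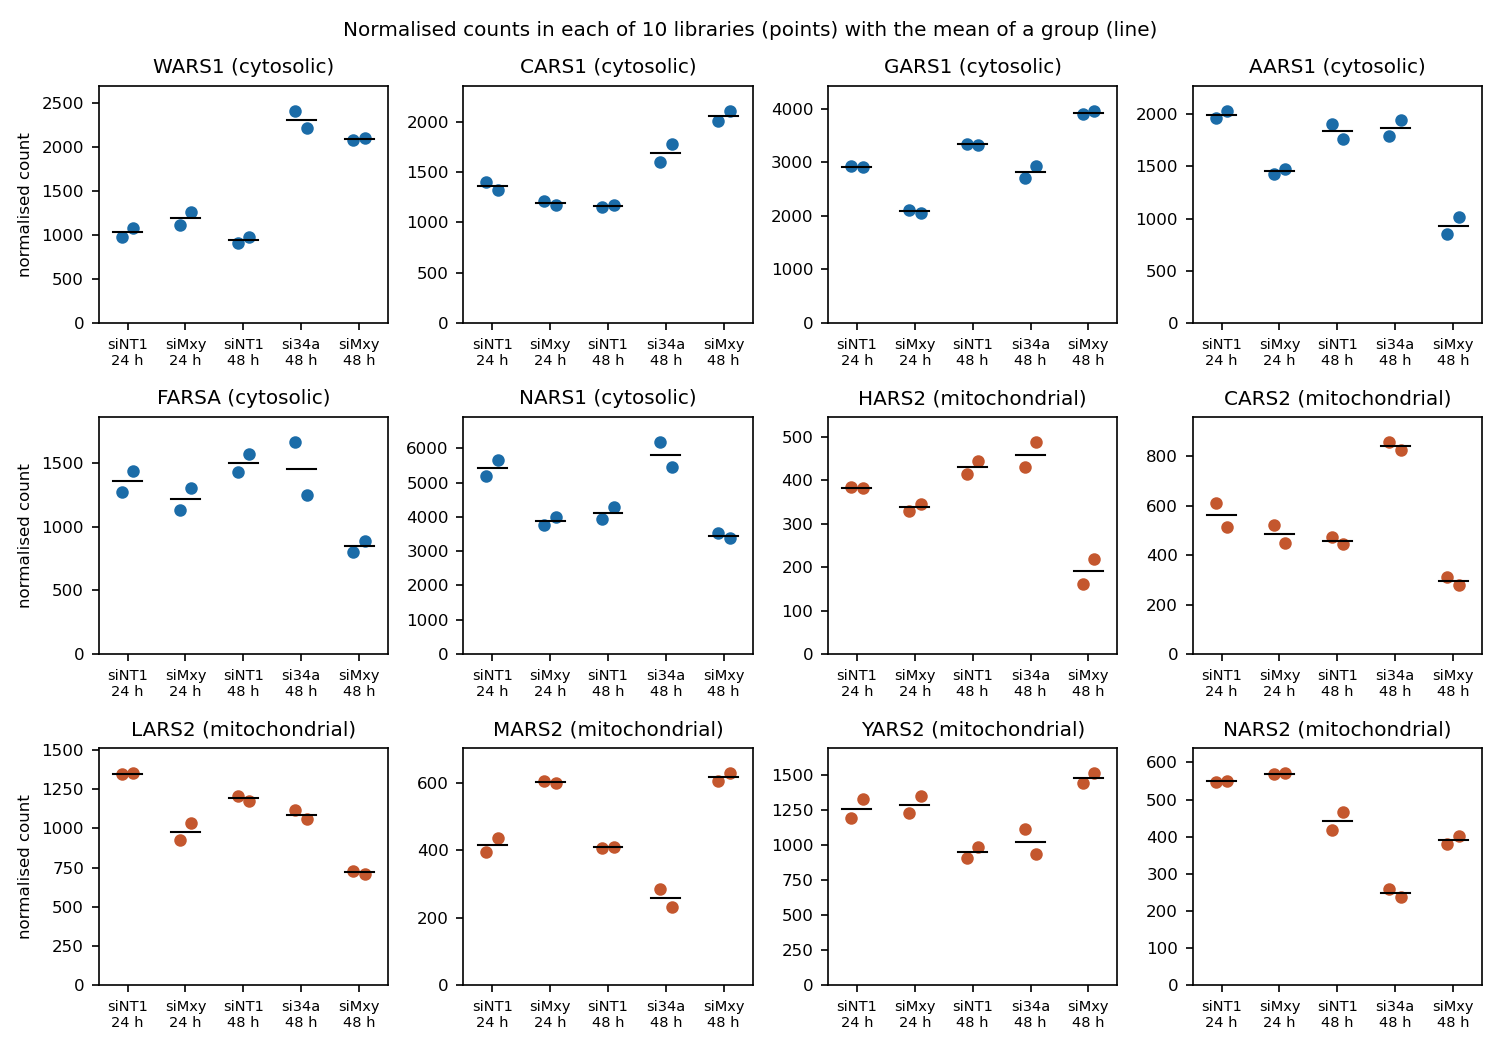
Normalised counts of 12 synthetase genes in each of 10 libraries (points) with the mean of each group (line), for siNT1 at 24 and 48 h, siGGGGGC (siMxy) at 24 and 48 h and siGGCAGU (si34a) at 48 h; each vertical axis starts at 0. WARS1 stands at 2080.1 to 2399.8 with either siRNA at 48 h and at 911.6 to 1259.8 in the other libraries, whereas AARS1 and HARS2 are low with siGGGGGC at 48 h.

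Both 48 h comparisons use the same siNT1 libraries, so their values are given side by side. Shared controls by themselves can make calls in the same direction more frequent. The share of all genes with such joint calls was not counted, so the counts below are a description only. CARS1, HARS1, RARS1 and WARS1 rose with both siRNAs, and 0 genes fell with both by edgeR (1 at an unadjusted p under 0.05, and 0 by DESeq2). CARS2, NARS1 and QARS1 fell with siGGGGGC and rose with siGGCAGU, while GARS1 and MARS2 rose with siGGGGGC and fell with siGGCAGU. The genes that passed in none of the 3 comparisons with siNT1 were 6 in number: FARSB, IARS1, KARS1, PARS2, SARS2 and WARS2. KARS1, the lysyl enzyme of both compartments, had 5492.0 and 5909.1 normalised counts with siNT1, 6106.1 and 5145.7 with siGGCAGU and 6025.8 and 6263.8 with siGGGGGC at 48 h. Its log2 fold changes were 0.04 ± 0.10 with siGGGGGC at 24 h, 0.11 ± 0.0999 at 48 h and −0.02 ± 0.10 with siGGCAGU. At 24 h it had 6972.6 and 7260.1 with siNT1 and 6825.3 and 7787.5 with siGGGGGC.

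The direct comparison of the siRNAs at 48 h tests which synthetases the treatments set apart. With siGGGGGC against siGGCAGU, 10 of 36 were higher and 12 lower, beside 26.7% and 27.6% of all genes tested. In mitochondria 4 were higher and 7 lower, and in the cytosol 6 were higher and 5 lower. Past 2-fold, 1 was higher and 3 were lower, beside 10.1% and 12.8% of all genes. MARS2 was higher with siGGGGGC, the log2 fold change being 1.28 ± 0.114 with an adjusted p of 1.62e-07. CARS2 was lower by −1.51 ± 0.116 (adjusted p of 3.31e-08), HARS2 by −1.26 ± 0.135 (adjusted p of 1.13e-06) and AARS1 by −1.0 ± 0.0967 (adjusted p of 3.98e-07). For WARS1 the difference between the siRNAs was −0.14 ± 0.0912 and did not pass, with an adjusted p of 0.211.

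Pairs of a cytosolic and a mitochondrial enzyme were read for 14 amino acids. Phenylalanine (FARSA and FARSB, with FARS2) and proline (EPRS1, with PARS2) also have both enzymes among the genes but were not counted. For these, FARSA (−0.82) and EPRS1 (−0.24) fell with siGGGGGC at 48 h, while FARSB (−0.18), FARS2 (0.05) and PARS2 (0.18) did not pass. With siGGCAGU FARS2 rose (0.63), while FARSA (−0.05), FARSB (−0.20), EPRS1 (0.04) and PARS2 (0.41) did not pass. With siGGGGGC at 48 h, both enzymes fell for 3 of the 14 amino acids (alanine, glutamate and leucine). Both rose for methionine, and they moved in opposite directions for cysteine and histidine. CARS1 rose by 0.82 while CARS2 fell by 0.63, and HARS1 rose by 0.55 while HARS2 fell by 1.17, on the log2 scale. With siGGCAGU, both rose for cysteine and arginine, and NARS1 rose (0.50) while NARS2 fell (−0.84). At 24 h with siGGGGGC, 0 of these 14 amino acids had both enzymes pass by edgeR (3 at an unadjusted p under 0.05, and 0 by DESeq2). In the direct comparison of the siRNAs 3 of these 14 amino acids had both enzymes higher, 1 both lower and 2 opposite. Outside the 14, FARSA (−0.78) and FARS2 (−0.57) were also lower in that comparison.

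**Figure D4:**
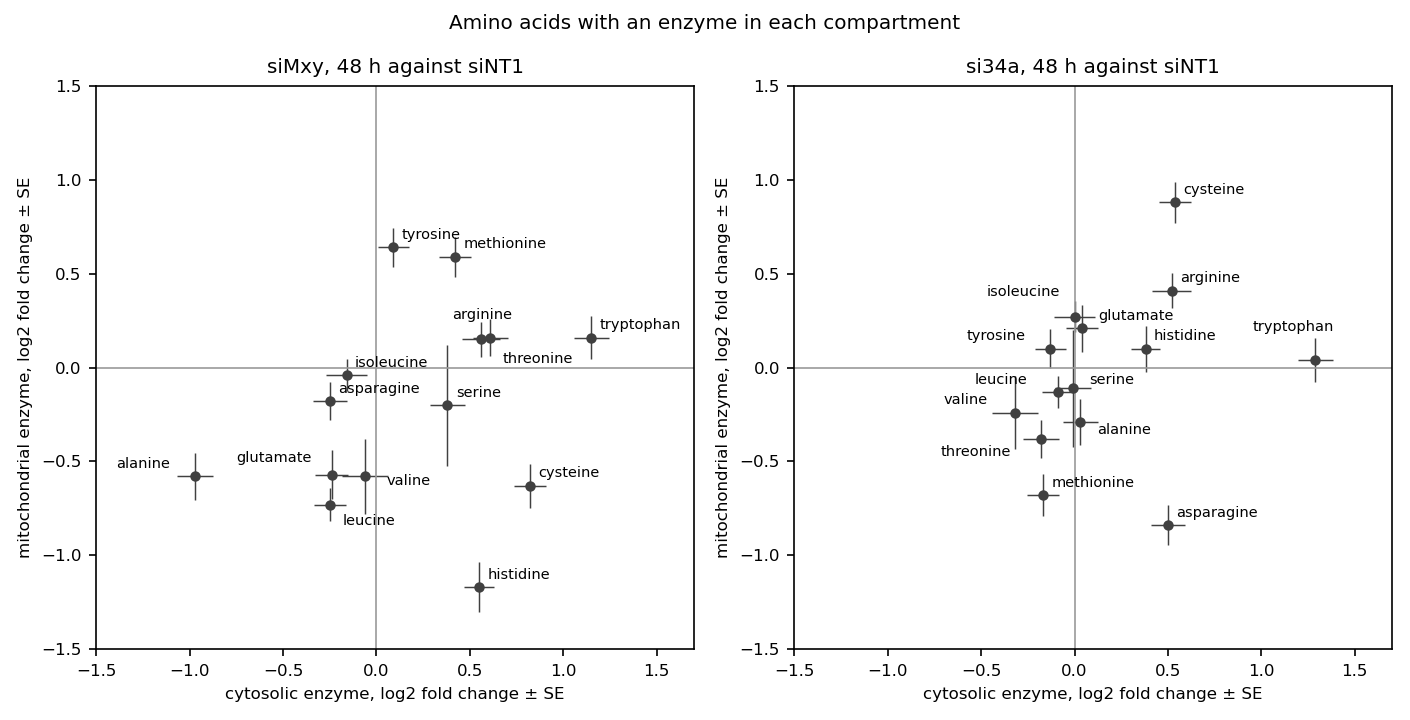
Log2 fold change (± SE) against siNT1 at 48 h of the cytosolic enzyme (horizontal) and the mitochondrial enzyme (vertical) for 14 amino acids, with siGGGGGC (siMxy, left) and siGGCAGU (si34a, right). Histidine (0.55 and −1.17) and cysteine (0.82 and −0.63) lie at the lower right with siGGGGGC, and asparagine (0.50 and −0.84) with siGGCAGU.

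The siGGGGGC effect at 48 h differed from that at 24 h for 15 synthetases by the interaction term of the edgeR fit: 9 were higher and 6 lower, beside 13.4% and 15.2% of all genes tested. In the cytosol 8 were higher and 3 lower, and in mitochondria 1 was higher and 3 lower. Without siNT1 replicate 2 at 24 h 5 were higher, and without siGGGGGC replicate 1 at 48 h 3 were lower. CARS1 had the largest difference, 1.01 ± 0.123 with an adjusted p of 2.79e-05, from a log2 fold change of −0.19 at 24 h to 0.82 at 48 h. For WARS1 the difference was 0.94 ± 0.133 with an adjusted p of 9.81e-05. GARS1 passed as lower at 24 h and as higher at 48 h, a difference of 0.72 ± 0.115 with an adjusted p of 2.66e-04. QARS1 went the other way, with a difference of −0.52 ± 0.122 and an adjusted p of 0.00462. HARS2 (−0.98) and AARS2 (−0.93) had the largest negative differences. AARS1, LARS2 and NARS1 were lower at both times, and HARS1 and MARS2 were higher at both.

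**Figure D5:**
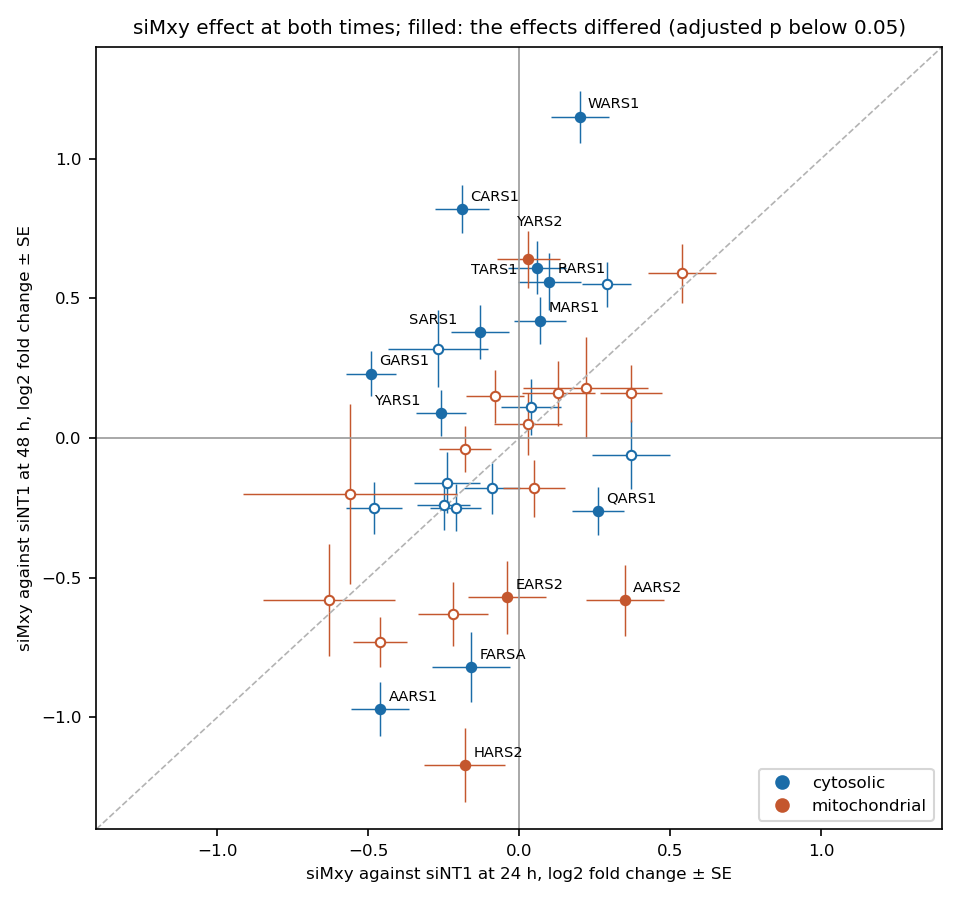
Log2 fold change (± SE) of siGGGGGC (siMxy) against siNT1 at 24 h (horizontal) and at 48 h (vertical) for 36 synthetase genes, cytosolic in blue and mitochondrial in orange, with the dashed line marking equal effects. Filled and named points are the 15 genes whose effects differed at an adjusted p below 0.05, from HARS2 (−0.98) below the line to CARS1 (1.01) above it.

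In siNT1 cells alone, 0 synthetases were higher and 8 lower at 48 h than at 24 h by edgeR, beside 9.37% and 7.20% of all genes tested. At an unadjusted p under 0.05, 2 were higher, and 0 by DESeq2. The 5 cytosolic genes were NARS1 (−0.40), RARS1 (−0.37), IARS1 (−0.34), TARS1 (−0.34) and KARS1 (−0.32), and the 3 mitochondrial genes YARS2 (−0.41), FARS2 (−0.36) and NARS2 (−0.31). Time and the change of medium at 24 h cannot be told apart here. The count of 8 depended on scaling and on single libraries. With unscaled library totals 4 were higher and 0 lower, and the median of all genes shifted to 0.23. Without either siNT1 library at 24 h or without siNT1 replicate 1 at 48 h, 0 were lower.

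The enzymes with the GCCCCC word in the longest annotated 3′ UTR changed in both directions. Of these 12 genes, 2 rose and 2 fell at 24 h with siGGGGGC, and 4 rose and 6 fell at 48 h. Of the 24 genes without it, 2 rose and 3 fell at 24 h, and 6 rose and 6 fell at 48 h. The median log2 fold change at 48 h was −0.04 with the word and 0.01 without it. Among all protein-coding genes tested at 24 h, 504 rose and 515 fell of 3918 with the word, and 1186 rose and 627 fell of 8485 without it. At 48 h, 994 rose and 1441 fell of 3918 with the word, and 2934 rose and 2295 fell of 8485 without it. Thus 50% of the synthetases with the word and 25% of those without it fell at 48 h. The shares of all coding genes that fell were 36.8% and 27%. At 24 h these shares were 16.7% and 12.5% in the synthetases and 13.1% and 7.39% in all coding genes. The difference within the synthetases was not tested. HARS1, with 3 copies, rose, and LARS2, with 3 copies, fell. In the shortest annotated 3′ UTR, of 56 and 79 bases, both have 0 copies, and 5 of 29 synthetase genes hold the word. AARS1 and HARS2, with the deepest falls of their compartments, had 0 copies. With siGGCAGU, 0 of the 4 genes with ACTGCC passed by edgeR. At an unadjusted p under 0.05, 1 of them was higher and 1 lower, and by DESeq2 0 passed. Of all 4528 coding genes tested that hold ACTGCC, 1247 rose and 1489 fell (32.9%). Of the 7875 without it, 2652 rose and 1981 fell (25.2%).

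Of the 7 cytosolic genes with the promoter element, 0 rose and 3 fell with siGGGGGC at 24 h, with a median log2 fold change of −0.24, whereas of the 9 without it 2 rose and 0 fell, with a median of 0.04. At an unadjusted p under 0.05 in edgeR, 0 with the element were higher and 1 without it was lower, and DESeq2 gave the same counts, 0 and 1. At 48 h, 4 of 7 rose and 2 fell with a median of 0.23, and without the element 4 of 9 rose and 3 fell with a median of 0.11. Of all genes tested, 10.6% rose and 8.32% fell at 24 h, and 27.8% and 27.5% at 48 h. For siGGCAGU the medians were 0.00 and 0.04. These counts are a description of few genes. They leave out LARS1, TARS3, VARS1 and YARS1, which had no promoter entry. Of these, YARS1 fell with siGGGGGC at 24 h (−0.26) and LARS1 at 48 h (−0.25), while with siGGCAGU TARS3 rose (0.34) and VARS1 fell (−0.32).

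Genes of the GCN2-ATF4 response outside the synthetases, from a list of 14, were also read. Their counts stand beside 10.6% higher and 8.32% lower of all genes with siGGGGGC at 24 h, 27.8% and 27.5% at 48 h, and 27.8% and 24.9% with siGGCAGU. At 24 h with siGGGGGC, 0 of 13 tested rose by edgeR (1 at an unadjusted p under 0.05, and 0 by DESeq2) and 3 fell, namely ATF5 (−0.96), ATF4 (−0.62) and EIF2AK4 (−0.45), which encodes GCN2. At 48 h, 10 rose and 3 fell. The largest rises were DDIT4 (3.28), DDIT3 (2.28), CHAC1 (1.84) and PPP1R15A (1.74), genes known for stress signalling. The 3 that fell, picked out after their values were seen, were ATF5 (−1.69), EIF2AK4 (−1.18) and GCN1 (−0.39), the last encoding an activator of GCN2. ATF4 had 5237.2 and 5676.5 normalised counts with siNT1 and 7067.5 and 7203.1 with siGGGGGC at 48 h. With siGGCAGU 6 rose and 5 fell, and DDIT3 rose by 2.24 on the log2 scale.

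Amino acid synthesis genes were read from a further list, beside 27.8% higher and 27.5% lower of all genes with siGGGGGC at 48 h, 27.8% and 24.9% with siGGCAGU, and 10.6% and 8.32% at 24 h. With siGGGGGC at 48 h 7 of 12 rose and 2 fell. ASNS, which makes asparagine, had a log2 fold change of 1.02 ± 0.367 with an adjusted p of 0.0278. ASNS rests on few counts, with means at 48 h of 11.8 normalised counts with siNT1 and 24.1 with siGGGGGC. The size of its rise is therefore uncertain. PYCR1, an enzyme of proline synthesis, had the largest change, −2.91. With siGGCAGU 2 rose and 5 fell. At 24 h with siGGGGGC 2 rose and 1 fell. Of 9 amino acid transporters tested from a list of 10, 5 rose and 2 fell with siGGGGGC at 48 h, 3 rose and 6 fell with siGGCAGU, and 2 rose and 1 fell at 24 h. SLC7A11, the cystine transporter, rose from 3350.5 and 3335.2 normalised counts to 17446.9 and 16229.6 with siGGGGGC and to 31353.2 and 28020.7 with siGGCAGU.

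Interferon-stimulated genes were read because WARS1 is one of them. Of 8 tested from a list of 10, 7 rose and 1 fell with siGGGGGC at 48 h, and all 8 rose with siGGCAGU by edgeR, where 27.8% of all genes rose with either siRNA. IFIT1, which binds foreign RNA, rose by 1.20 with siGGGGGC and by 3.90 with siGGCAGU on the log2 scale. GBP1, a guanylate-binding protein gene, fell by 0.52 with siGGGGGC and rose by 2.40 with siGGCAGU. At 24 h 2 rose and 1 fell with siGGGGGC, the fall being GBP1 (−1.42), beside 10.6% higher and 8.32% lower of all genes.

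The multisynthetase complex holds several cytosolic synthetases on scaffold proteins. Of its 7 enzymes among the genes, 2 rose and 3 fell with siGGGGGC at 48 h, 1 rose and 0 fell at 24 h, and 2 rose and 0 fell with siGGCAGU by edgeR. At an unadjusted p under 0.05, 3 were lower at 24 h and 0 with siGGCAGU, and by DESeq2 1 and 0. The shares that rose with siGGGGGC, 28.6% at 48 h and 14.3% at 24 h, lie near the 27.8% and 10.6% of all genes. At 48 h 42.9% fell beside 27.5% of all genes, and at 24 h 8.32% of all genes fell. With siGGCAGU the 28.6% that rose also lie near the 27.8% of all genes, of which 24.9% fell. These shares of all genes also stand beside the scaffold and partner genes that follow. Of the 3 scaffold genes, EEF1E1 fell with siGGGGGC at 48 h (−0.43), AIMP2 rose at 24 h (0.55), and with siGGCAGU AIMP1 rose (0.37) and EEF1E1 fell (−0.26). Of 4 partners of mitochondrial charging, GATC, a subunit of the amidotransferase that completes glutaminyl-tRNA, fell with siGGGGGC at 24 h (−0.42) and at 48 h (−0.72) and with siGGCAGU (−0.66). QRSL1, another subunit, rose at 48 h by 0.33 with siGGGGGC and by 0.41 with siGGCAGU, and GATB rose with siGGCAGU (0.38).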

How the data were processed

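Total RNA was depleted of ribosomal RNA, made into TruSeq libraries and sequenced paired-end. The authors trimmed reads with Trimmomatic, aligned them to hg38 with TopHat or STAR and deposited raw counts per Ensembl gene from htseq. The processing notes also name Bowtie2 and DESeq2. Which aligner was used and the strand setting were not given in the sources used here, so genes that overlap others are uncertain, as are near copies. The authors' tables of comparisons, which hold means, fold changes and p-values, were not used. There were 0 rows naming no gene. The files held 0 columns of unmapped samples.

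Genes were kept by filterByExpr of edgeR 4.0.16 (R 4.3.3) over 5 groups, 16905 in all, and fitted in a single quasi-likelihood model of 10 libraries with TMM scaling and 5 degrees of freedom left. The Benjamini-Hochberg adjustment ran over these genes, and a gene passed below 0.05. The biological coefficient of variation was 0.0837. Each SE was derived from the quasi-likelihood test, as the absolute log2 fold change divided by the square root of the F statistic. DESeq2 1.42.0 served as an alternative. The scripts were tested on simulated data. Total counts were 19781445 or more per library. Gene positions, canonical exons and 3′ UTRs came from GENCODE release 44 on hg38, which held 98.9% of the gene identifiers. Promoters came from RefSeq, with no entry for LARS1, TARS3, VARS1, YARS1, AARS2 and VARS2.

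By rule, values in each library are given for up to 4 cytosolic and 4 mitochondrial genes with the largest change among those that passed in each comparison of an siRNA with siNT1, and for WARS1, TARS3, GARS1 and KARS1. TARS1, MARS1, FARSB and, for siGGGGGC at 48 h, NARS1 and MARS2 were added after their values were seen. List genes were named when they passed, at most 4 a list by size of change, and others were named after their values were seen. The members and lists were chosen with earlier results of these data known. Over 10 pairs of groups, deviations of same-numbered libraries correlated between −0.618 and 0.192. The sign differed between pairs of groups, so the numbers were not used as pairs in the main fit. Whether some wells shared a batch was not tested.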

Additional observations from a re-analysis of the deposited data

Results flagged for a closer look

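The effect of siGGGGGC against siNT1 differed between 24 and 48 h for 15 synthetases by the interaction term of the edgeR fit (Benjamini-Hochberg, adjusted p below 0.05). The differences, 48 h minus 24 h on the log2 scale, were 1.01 for CARS1, 0.94 for WARS1, 0.72 for GARS1, 0.56 for TARS1, 0.51 for SARS1, 0.46 for RARS1, 0.36 for MARS1, 0.35 for YARS1 and 0.60 for YARS2. They were −0.67 for FARSA, −0.52 for QARS1, −0.51 for AARS1, −0.98 for HARS2, −0.93 for AARS2 and −0.53 for EARS2. Of these calls 8 held in all 16 alternatives. The calls for YARS1, MARS1, EARS2 and RARS1 were lost in 11, 10, 8 and 7 of them.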

How the results depend on the processing

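Every synthetase that passed kept its sign in each alternative run. The calls that held in all alternatives were 4 of 9 with siGGGGGC at 24 h, 16 of 22 at 48 h, 9 of 16 with siGGCAGU, 17 of 22 between the siRNAs, 8 of 15 for the difference between times and 0 of 8 for siNT1 over time. The cause was not tested for the changes below, other than that leaving out a library leaves fewer libraries.

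Without scaling of library totals, 0 cytosolic and 1 mitochondrial genes rose with siGGGGGC at 24 h. With siGGCAGU, 4 cytosolic genes then rose and 6 fell, and 5 mitochondrial genes fell. In siNT1 over time 4 synthetases were then higher and 0 lower. The median of all genes shifted to −0.17 with siGGGGGC at 48 h, to −0.13 with siGGCAGU and to 0.23 in siNT1 over time. With no filter on low counts, 2 mitochondrial genes fell with siGGGGGC at 24 h, 4 cytosolic genes fell with siGGCAGU, and 1 synthetase was higher and 3 lower in siNT1 over time. When each comparison was fitted on its own libraries, 9 cytosolic and 3 mitochondrial genes fell with siGGGGGC at 24 h, and 4 cytosolic genes rose and 0 fell with siGGCAGU.

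The replicate numbers were not used as pairs in the main fit. With the replicate block, 1 cytosolic gene rose with siGGGGGC at 24 h and 4 synthetases were lower in siNT1 over time. The other counts stayed within 1.5 times.

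Leaving out each library in turn gave 0 cytosolic genes higher, 0 to 1 mitochondrial genes higher and 1 to 2 lower with siGGGGGC at 24 h. It gave 2 to 6 cytosolic genes lower with siGGGGGC at 48 h and 1 to 4 lower with siGGCAGU. For the difference between times 5 to 8 synthetases were higher and 3 to 7 lower, and in siNT1 over time 0 to 1 were higher and 0 to 10 lower.

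Over all genes tested, 1797 rose and 1406 fell with siGGGGGC at 24 h. These counts were 781 and 1417 without scaling, 2649 and 2478 on the compared libraries alone, and 788 to 1016 and 717 to 722 without any 1 of the 4 libraries. In siNT1 over time, 1584 rose and 1217 fell, against 2729 and 179 without scaling, 2425 and 728 with no filter, 344 and 196 or 279 and 113 without siNT1 replicate 1 or 2 at 24 h, and 523 and 208 without replicate 1 at 48 h. Without scaling, 3236 rose and 5337 fell with siGGGGGC at 48 h in place of 4702 and 4643, 3257 and 4769 with siGGCAGU in place of 4699 and 4207. In the shortest annotated 3′ UTR, 5 of 29 synthetase genes held GCCCCC in place of 12 of 36. SARS2, PARS2, TARS3 and VARS2 had the fewest counts, and changes there were hard to detect at this depth.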
